A study of Caenorhabditis elegans with 2 samples.

Results

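Touch receptor neurons of Caenorhabditis elegans sense gentle touch to the body wall through a channel complex that is held in place by a specialised extracellular matrix. The account covers 10 genes of that apparatus: mec-4, mec-10, mec-2, mec-6 and unc-24 for the channel complex, mec-1, mec-5 and mec-9 for the matrix, and mec-14 and mec-18 for cytoplasmic proteins needed for touch. They are a named list of 10, set here against all 19973 protein-coding genes on the 6 chromosomes, and 5 of them lie on the X chromosome. For each gene, the regions considered were those with a summit between 2000 bp upstream of the annotated 5′ end and the end of the gene.

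Mechanical force on the body is thought to pull on the channel, which belongs to the DEG/ENaC family of sodium channels, and so to depolarise the neuron. MEC-4 and MEC-10 form the pore, MEC-2 is a stomatin-like protein that raises channel activity, and MEC-6 is a paraoxonase-like protein needed for the channel to be made and placed. UNC-24 is another stomatin-like protein of the complex. MEC-5 is a collagen, and MEC-1 and MEC-9 are secreted or surface proteins with EGF-like and Kunitz-type domains. MEC-3, the LIM homeodomain factor studied here, acts with the POU factor UNC-86 to turn on touch receptor neuron genes, and the pair binds DNA sites that contain the letters AATGCAT.

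The data are ChIP-seq region lists for 1 group of 2 samples, numbered biological replicates 1 and 2 in the labels, with no control sample used here. Both came from whole hermaphrodites at the late embryo stage, 4 h after synchronisation by egg bleaching, of strain OP55 (unc-119(ed3) III; wgIs55), which carries MEC-3 with a C-terminal GFP-FLAG tag. An antibody against GFP was used, and the labels do not say what drives the transgene. Touch receptor neurons are a very small share of the cells of a whole embryo, so signal from them is mixed with that of all other cells. No cell type is assigned to any gene or region from these data.

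Each region has the authors' signal value, which is used only to rank regions within a list. The list made from both replicates together (the pooled list) held 27953 regions, that of replicate 1 30000 and that of replicate 2 22464, and the authors' final list held 457 peaks with signals of 77.4 or more. The pooled list reaches far into background: 1147 of its regions had a q-value of at most 0.05, and the median q-value was 0.773. The number of reads is unknown, and no interval for counting error can be given.

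Of the 10 genes, 1 had a final peak. It lay in mec-5, the collagen gene, and it was inside the gene and not in its promoter. The share of all protein-coding genes with a final peak in the same window was 2.81%, so that 1 of 10 is the count of a single gene and no measure of the group. With a pooled candidate region there were 9 of 10 genes, against 66.8% of all genes, and mec-14 had none. A pooled region that overlapped a region of each replicate's own list was found at 5 of 10 genes (mec-10, mec-2, mec-6, mec-5 and mec-18), against 40.0% of all genes. A pooled region with a q-value of at most 0.05 was found at mec-5 alone among the 10, against 6.37% of all genes.

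The windows of these genes are longer than usual, with a median of 6175 bp against 4027 bp over all protein-coding genes. Per length, the 10 windows held 20 pooled regions in 85.2 kb, or 0.235 per kb, against 0.302 per kb over all protein-coding windows and 0.274 per kb over those on X. The median of the highest signal per gene was 40.3 over the 9 genes with a region and 35.4 over the 13344 such genes in the genome. These medians are not matched for window length. Among genes with a window within 20% of the length of a member's, the median ran from 33.4 (for unc-24) to 51.3 (for mec-2). The shares of 66.8% and 40.0% over all genes are not matched for length either. In those same classes the share with a pooled region ran from 62.6% (for unc-24) to 99.5% (for mec-2). The share with a region in both replicates ran from 33.7% (for unc-24) to 88.2% (for mec-2).

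**Figure D1:**
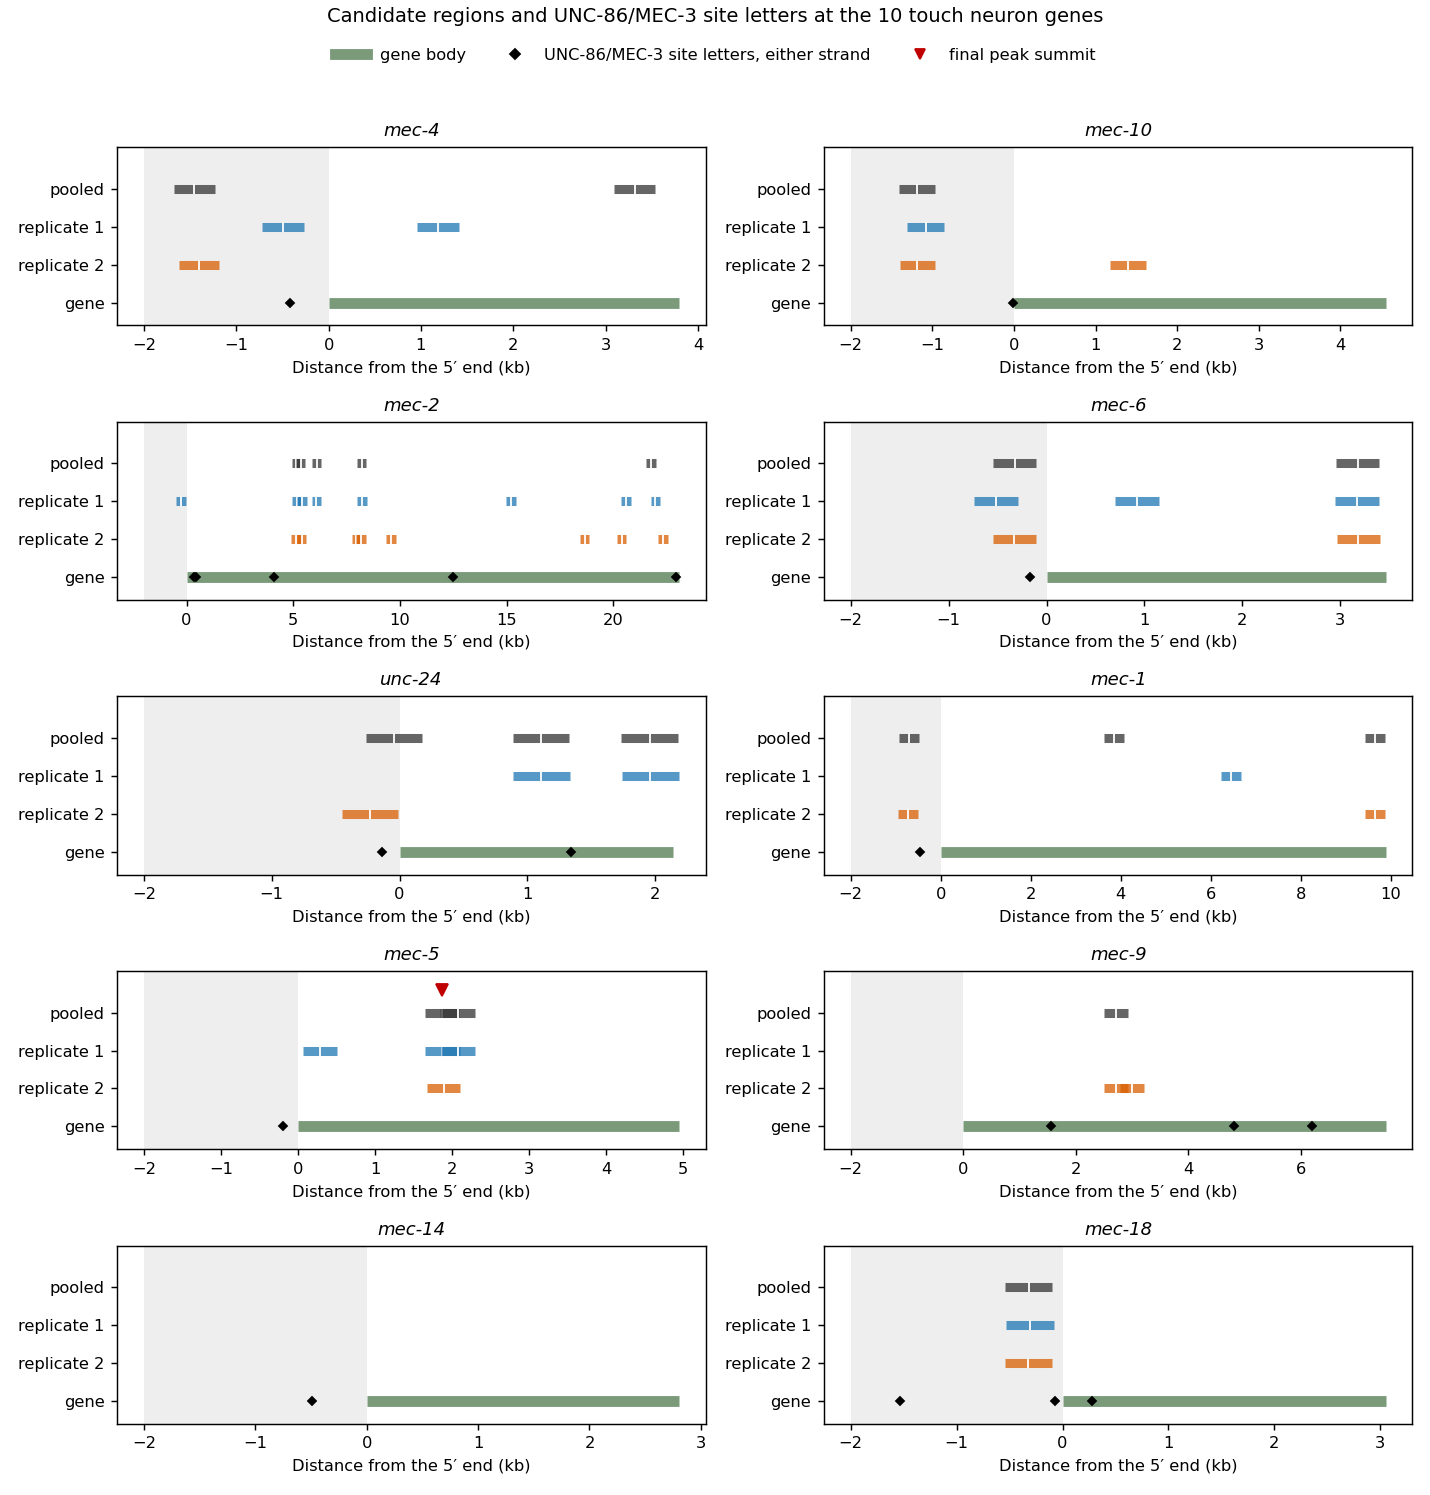
Each panel is 1 gene, with distance from its 5′ end in kb on the x axis and the 2 kb upstream shaded. Rows show candidate regions of the pooled list, of replicate 1 and of replicate 2 (bars, with the summit as a white tick), the gene body (green), matches to the UNC-86/MEC-3 site letters (diamonds) and the final peak (red triangle); the only final peak of the 10 genes is in mec-5, and mec-14 has no region in any list.

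The final peak in mec-5 covered chrX:15945659-15946102 on ce11, with its summit 1872 bp downstream of the 5′ end, in the fourth of 7 coding exons. Its signal was 79.3 in the pooled list (rank 404 of 27953), 41.9 in replicate 1 (rank 423 of 30000) and 39.6 in replicate 2 (rank 612 of 22464). The region was therefore near the top of each list, and the summits of the replicates lay 1 and 17 bp from the pooled summit. Its q-values as deposited were 0.00620 in the pooled list, 0.0130 in replicate 1 and 0.0204 in replicate 2. Among the 457 final peaks it ranked 404, close to the lowest final signal of 77.4. A signal at least as high was found at 3.80% of the 13344 genes with a region. Among the 2924 genes with a window within 20% of the length of that of mec-5, 106 (3.63%) had a final peak.

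A second pooled region of mec-5, at chrX:15945858-15946301, overlaps the first and has its summit in the same exon. Its signal was 48.1 (rank 3245), and replicate 1 had a region of its own there, with a signal of 30.5 (rank 2050) and its summit 5 bp away. In replicate 2 the only region of the window, at rank 612, overlaps both pooled regions, with its summit 182 bp from that of the second. Replicate 1 had a further region near the 5′ end, 284 bp downstream of it, with a signal of 15.6 (rank 18018). No annotated gene other than mec-5 lies in its window.

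The exon under the summit, chrX:15945844-15946167, encodes collagen Gly-X-Y repeats, each of which opens with a glycine. At the glycine position of the repeat, 36 of 36 codons begin with GG, as every glycine codon does. Its GC content was 57.7%, the highest of the 7 coding exons, of which the lowest was at 38.1%. Within 100 bp of the summit the GC content was 48.3%, against a median of 48.3% over the final peaks and 42.3% over the pooled list. None of the 24-mers in that stretch occurs elsewhere in the genome (0% multi-copy), although the protein sequence is repetitive. The part of GC content in the signal was not tested.

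The sequence within 100 bp of the mec-5 summit is printed because it is the only final peak of the set. It is on the plus strand, the strand of the gene, at chrX:15945781-15945981, and capitals mark in-frame codons that begin with GG. An intron separates the end of the exon before from the exon that holds the summit.

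mec-5 peak: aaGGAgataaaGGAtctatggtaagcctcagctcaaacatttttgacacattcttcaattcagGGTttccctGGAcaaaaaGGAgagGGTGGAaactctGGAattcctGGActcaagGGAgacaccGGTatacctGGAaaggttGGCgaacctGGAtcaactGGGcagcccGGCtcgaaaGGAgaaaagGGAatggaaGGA

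This stretch held none of the 4 motifs searched, which were AATGCAT, the homeodomain core TAATTA, the POU octamer ATGCAAAT and GAGAGA. Over the pooled list, 2.54% of regions held AATGCAT, 6.18% TAATTA, 1.499% ATGCAAAT and 15.7% GAGAGA.

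The other matrix genes had weaker regions, none of which was found in both replicates. mec-1 (chrV:6956537-6966425) had 3 pooled regions with signals of 40.3, 31.0 and 28.2. The strongest, with its summit 708 bp upstream of the 5′ end, had a signal of 25.1 in replicate 2 (rank 4017) and no overlapping region in replicate 1. The only region of replicate 1 in the mec-1 window lay at another place, in a coding exon 6455 bp downstream of the 5′ end (signal 17.7, rank 13297). mec-9 (chrV:9907615-9915121) had 1 pooled region, in a coding exon, with a signal of 24.5 (rank 22321). Replicate 2 had it at a signal of 19.8 (rank 9242), and replicate 1 had no region in the window of mec-9 at all. Of the genes with a region, 88.5% had a signal at least as high as that of mec-9.

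The pore subunit genes had weak regions, none of them within 1000 bp of the 5′ end in the pooled list. mec-10 (chrX:8465760-8470314) had 1 pooled region, with its summit 1183 bp upstream and a signal of 37.1 (rank 7833). It was found in both replicates, with a signal of 19.4 in replicate 1 (rank 10505) and 19.97 in replicate 2 (rank 8959). Its place in the 3 lists was between 28.0% and 39.9% of the way down, and the summit of replicate 1 lay 102 bp from the pooled one. Within 100 bp of that summit, 42.1% of the 24-mers occur more than once in the genome, where 73.9% of pooled regions had none, and how this bears on the signal was not tested.

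mec-4 (chrX:16803321-16807115) had 2 pooled regions with signals of 26.5 (rank 19003) and 24.3 (rank 22829). The first lay in an intron 3317 bp downstream of the 5′ end and overlapped no region of either replicate. The second lay 1455 bp upstream, in a coding exon of the neighbouring gene cas-1, and overlapped a region of replicate 2 only (signal 20.9, rank 7775). Replicate 1 instead had regions 1187 bp downstream (signal 16.7) and 494 bp upstream (signal 13.1, rank 25621). No place in the mec-4 window was therefore called by both replicates. Of the genes with a region, 80.9% had a signal at least as high.

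Among the accessory genes, mec-2 (chrX:5567754-5590830) had the highest signal after mec-5 and the most regions, in the longest window of the set. Its strongest pooled region, chrX:5572676-5573119, had a signal of 58.1 (rank 1571, q-value 0.0863). The same place had a signal of 33.1 in replicate 1 (rank 1432) and 23.9 in replicate 2 (rank 4939). It was in the top 4.77% of the replicate 1 list and at 22.0% of the way down that of replicate 2. The summit lies inside the gene, 5144 bp from its 5′ end, and falls on the non-coding RNA gene C38C5.2 on the other strand.

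The 17 annotated mec-2 transcripts begin at 10 different places, and 3 of its 5 pooled regions lay at such internal starts. The summit of the strongest was 15 bp upstream of one, that of a region with signal 46.9 (rank 3556) 47 bp upstream of one, and that of a region with signal 45.3 (rank 4011) 12 bp upstream of one. Over all pooled regions, 3.17% had a summit within 50 bp of a protein-coding transcript start, a distance that was not planned beforehand. That share does not take the number of starts of a gene into account, and the first 2 of these mec-2 regions overlap each other. The second was also in both replicates, with a signal of 16.8 in replicate 1 (rank 15262) and 25.2 in replicate 2 (rank 3951). The region with signal 45.3 was found in both replicates, with a signal of 24.1 in replicate 1 (rank 5167) and 22.5 in replicate 2 (rank 6083). The remaining pooled regions of mec-2, with signals of 38.4 and 25.4, overlapped a region of replicate 1 only. Upstream of the 5′ end, replicate 1 alone had a region in the window, 266 bp away, with a signal of 21.2 (rank 7998). Among the 187 genes with a window of similar length, 186 had a region, the median number of regions was 8, and 32.6% had a signal at least as high. A signal of this size was therefore common in windows this long, and mec-2 had 5 pooled regions.

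mec-6 (chrI:6724867-6728330) had its strongest region in the promoter, with the summit 326 bp upstream and a signal of 42.7 (rank 4957), and the replicates differed there. Replicate 2 had a signal of 31.7 at rank 1602, with its summit 3 bp away, and replicate 1 had 12.3 at rank 28550, with its summit 188 bp away. The region is thus at 95.2% of the way down the replicate 1 list and in the top 7.13% of that of replicate 2. Of the 24-mers within 100 bp of the pooled summit, 33.1% are multi-copy, and how this bears on the signal was not tested. A second region of mec-6, in an untranslated exon, had a signal of 30.8 and was found in both replicates within 6 bp, at ranks 23003 and 16353.

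unc-24 (chrIV:7979870-7982011) had 3 weak pooled regions, with signals of 28.1, 25.4 and 22.8. The 2 in coding exons overlapped a region of replicate 1 only, at ranks 14739 and 16876. The third, with its summit 43 bp upstream of the 5′ end, overlapped a region of replicate 2 only (rank 12850) and was among the weakest of the pooled list, at rank 25718.

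The remaining genes encode cytoplasmic proteins, MEC-14 being similar to aldo-keto reductases and MEC-18 to AMP-binding enzymes such as luciferases. mec-14 (chrIII:7190189-7192992) had no region in any of the lists, and the nearest pooled summit was 3117 bp from its 5′ end. Of the 6174 genes with a window of similar length, 68.5% had a pooled region. mec-18 (chrX:4271165-4274216) had 1 region, with its summit 319 bp upstream of the 5′ end and a signal of 43.0 (rank 4819). It was in both replicates, with a signal of 19.2 in replicate 1 (rank 10746) and 24.2 in replicate 2 (rank 4695). The replicate summits lay 12 and 4 bp from the pooled one. The place is not private to mec-18, because the summit falls on a coding exon of C52B9.10, a gene on the other strand that overlaps the mec-18 5′ end.

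**Figure D2:**
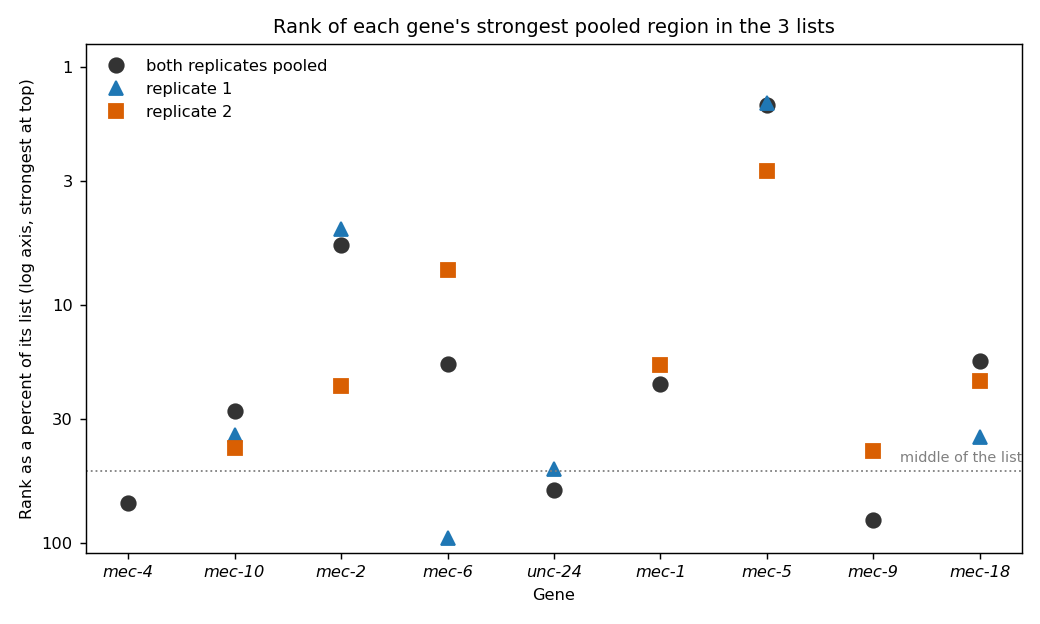
The y axis gives the rank of each gene's strongest pooled region as a percent of the list (log axis, strongest at the top), in the pooled list (circles) and at the overlapping region of replicate 1 (triangles) and replicate 2 (squares); a missing symbol means no overlapping region. mec-5 is in the top 1.45% of the pooled list, while mec-6 is at 95.2% in replicate 1 and 7.13% in replicate 2.

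Apart from mec-5, the nearest final peak was far from each gene. The distance from the 5′ end to the nearest final summit was 32810 bp for unc-24, the shortest of the other 9, and 471331 bp for mec-18, the longest.

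**Figure D3:**
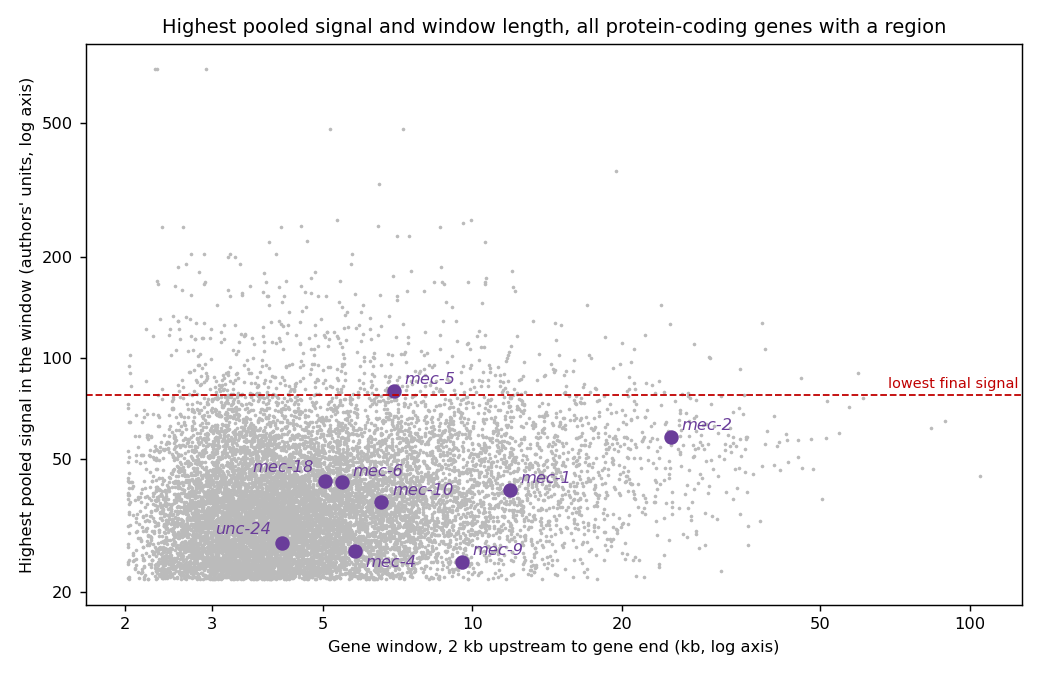
The highest pooled signal in a gene's window (authors' units, log axis) is plotted against the length of the window in kb (log axis), with grey points for the 13344 protein-coding genes that have a region and purple points for the 9 genes of this set that do. Of those 9, mec-5 alone, at 79.3, lies above the lowest final signal of 77.4 (dashed line).

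The letters AATGCAT, on either strand, stood close to the 5′ end of 8 of the 10 genes. In the 2000 bp upstream they occurred at 8 of 10 genes, against 26.2% of all 19973 protein-coding genes. Within 500 bp, a length chosen after the matches were seen, they occurred at the same 8 genes, against 7.06% of all genes. The genes without one are mec-2 and mec-9. The letters are known from earlier work on promoters of touch receptor neuron genes, so their presence here is a description of the genes and no independent support. The other motifs were at 7 of 10 (TAATTA, 64.6% of all genes), 5 of 10 (GAGAGA, 66.6%) and 0 of 10 (ATGCAAAT, 16.96%) in the 2000 bp upstream.

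These stretches are printed with 10 bases on each side because they are the candidate binding sites of the factor that was precipitated. Each is written on the strand on which it reads AATGCAT, which is in capitals, and coordinates are those of the printed bases. Those of mec-6 and unc-24 are not printed.

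mec-4, chrX:16807522-16807548, plus strand: agcaccagtcAATGCATatacaaaaca

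mec-10, chrX:8470313-8470339, plus strand: cgacaaaacgAATGCATttgtaagtgg

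mec-1, chrV:6956059-6956085, minus strand: cgtcgggtggAATGCATagaagactgt

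mec-5, chrX:15943806-15943832, minus strand: atatatttgaAATGCATgtttaaaatt

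mec-14, chrIII:7193465-7193491, plus strand: cgtaatttgaAATGCATgacgggaagg

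mec-18, chrX:4274268-4274294, plus strand: tcgcatcacaAATGCATaccagtgcaa

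The matches lie 16 bp (mec-10), 68 bp (mec-18), 139 bp (unc-24), 172 bp (mec-6), 193 bp (mec-5), 423 bp (mec-4), 468 bp (mec-1) and 489 bp (mec-14) upstream of the 5′ end. A further match of mec-18, 1533 bp upstream, is not printed. At mec-10 and unc-24 the letters go on to AATGCATT, which reads AATGCAT on both strands. An A before the match, giving AAATGCAT on one strand, was present in the 2000 bp upstream of 6 of the 10 genes, against 15.2% of all genes, and was looked for after the matches were seen.

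Candidate regions mostly lay elsewhere than these letters. Of the 8 matches within 500 bp of a 5′ end, 2 were inside a pooled region (25.0%), those of mec-6 and unc-24, against 169 of 1403 such matches over all protein-coding genes (12.05%). Of the 1403, 5 (0.356%) were inside a final peak, and none of the 8 was. The match of mec-6 was also inside a region of replicate 2 (rank 1602) and that of unc-24 inside one of replicate 2 (rank 12850). Replicate 1 had a region over the match of mec-4 alone, with a low signal (rank 25621) and its summit 74 bp away. No match was inside a region of both replicates.

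The distance from a match to the nearest pooled summit ran from 93 bp (unc-24) to 3603 bp (mec-14), with a median of 644.5 bp. At mec-5 the match was 2062 bp from the summit of the final peak, and at mec-10 it was 1171 bp from the pooled summit. At mec-18 it was 254 bp from the summit and outside the region. Of the 20 pooled regions of these genes, 1 had a match within 100 bp of its summit, that of unc-24, against 2.54% of all pooled regions.

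**Figure D4:**
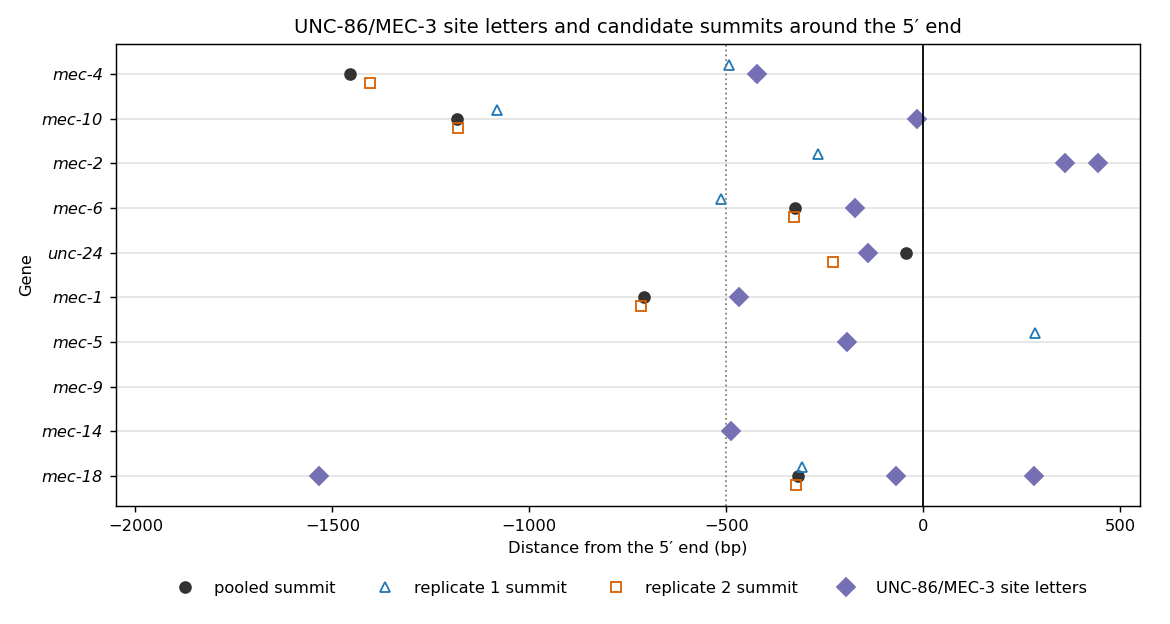
Each row is 1 gene, with distance from the 5′ end in bp on the x axis; diamonds are matches to the UNC-86/MEC-3 site letters, filled circles pooled summits, open triangles replicate 1 summits and open squares replicate 2 summits, and the dotted line is 500 bp upstream. Of the 8 genes with a match between the dotted line and the 5′ end, unc-24 is the one with a pooled summit within 100 bp of it.

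mec-2 and mec-9, which have no match upstream, have matches inside the gene. So do mec-18 (282 bp downstream of the 5′ end, in an intron) and unc-24 (1344 bp downstream, in a coding exon). mec-2 has 5, the nearest of them 361 bp downstream of the 5′ end of the gene, in an intron, and mec-9 has 3, all in coding exons. None of the 8 in mec-2 and mec-9, nor those inside mec-18 and unc-24, was inside a region of the pooled list or of either replicate.

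The same windows were read for 4 related lists. Over all protein-coding genes, 66.8% had a pooled region, 40.0% had one in both replicates and 2.81% had a final peak. Of 28 other DEG/ENaC channel genes, 15 had a pooled region, 4 had one in both replicates and 0 had a final peak. The highest signals among them were those of egas-2 (52.0, rank 2438), egas-1 (42.9), acd-4 (35.8) and del-8 (33.4). All 7 other stomatin genes had a region, 5 of them in both replicates, and 0 had a final peak. The highest was unc-1, with a signal of 74.8 (rank 544, q-value 0.0101) just under the lowest final signal, followed by sto-2 (57.9), sto-1 (48.7) and sto-4 (34.3). Within 500 bp upstream, AATGCAT occurred at 2 of the 28 DEG/ENaC genes, 0 of the 7 stomatin genes and 1 of the 7 chaperone and matrix partner genes. It occurred at 5 of 13 further genes linked to touch receptor neuron fate or function, against 7.06% of all genes.

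The list of channel chaperones and matrix partners had regions at 7 of 7 genes, in both replicates at 6, and a final peak at 1. For this list and the next, the shares over all protein-coding genes are again 66.8%, 40.0% and 2.81%. That peak was in an intron of him-4, the hemicentin gene that is needed to attach touch receptor neurons to the body wall, with a signal of 127 (rank 73) and ranks of 44 and 166 in the replicates. It is 26007 bp from the 5′ end of him-4, and 31.5% of the 24-mers around it are multi-copy. The others of highest signal were the laminin genes epi-1 (64.0), lam-2 (42.4) and lam-1 (41.5). Of 13 further genes linked to touch receptor neuron fate or function, 12 had a pooled region (all but mec-3 itself), 9 had one in both replicates and 1 had a final peak. That was lin-14, a heterochronic gene, with a signal of 83.8 (rank 328) on a non-coding RNA gene in its intron, followed by unc-86 (61.6), ptl-1 (57.5) and mec-8 (54.4). Neither these peaks nor that of mec-5 is at the gene's own 5′ end. The windows of him-4 (38200 bp) and lin-14 (22312 bp) are long, against a median of 4027 bp over all protein-coding genes. Of the 187 genes with a window within 20% of the length of that of mec-2, 10.7% had a final peak. That class takes in the window length of lin-14, while the window of him-4 is longer than any in it.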

How the data were processed

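Whole-embryo MEC-3-GFP ChIP-seq was described in 2 biological replicates (per the labels). Per the deposited file list, the authors called candidate regions from each replicate and from both together, each with a control file that was not used here, and made a final list by the irreproducible discovery rate. The signal value of each region is the authors' own; the sources used here do not name its scale. The second value is the deposited −log10 of a q-value, printed here as q. The sources used here name no aligner, peak caller, filter or read number.

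The ce11 lists were set against Ensembl release 115 genes (WBcel235) and RefSeq sequence of that assembly; the ce10 lists were not used. Coordinates are 1-based. A region in both replicates is a pooled region with 1 bp of overlap in each replicate's list, shown at the nearest summit. Motifs were searched on both strands within 100 bp of a summit and in 2000 bp upstream, with overlapping matches kept, and multi-copy means a 24-mer found more than once in the 6 chromosomes. The named genes are the 10 members, up to 4 genes of highest pooled signal from each of 4 related lists, and mec-3. The members and lists were chosen with earlier results of these data known. With 1 group and no control, no test was run: shares over all 19973 protein-coding genes are given as the background. The window, overlap and motif functions were tested on simulated data. Python 3.11.15, numpy 2.4.6 and pandas 2.3.3 were used. Alternatives were other windows, single replicates, a q-value limit, other overlaps and other motif distances.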

Additional observations from a re-analysis of the deposited data

How the results depend on the processing

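The counts moved with the window and with the q-value limit. With the promoter window alone (1000 bp upstream to 500 bp downstream), 4 of the 10 genes had a pooled region. In that window 2 genes had one in both replicates and 0 had a final peak, since the mec-5 peak lies inside the gene. With the gene body alone, 3 genes had a region in both replicates. Shares over all genes are not given for these 2 windows, so whether such counts are usual cannot be told. With a q-value limit of 0.05, 1 gene had a pooled region and 1 a region in both replicates, mec-5 in each case. Over all genes the share was 6.37% for the pooled region and is not given for both replicates. In the upper part of the final peaks by signal 0 genes had one. This follows from the rank of the mec-5 peak, 404 of 457, and is no separate result. The median over genes of the best rank, 21.4% of the way down the pooled list, was 47.9% with the gene body alone. Leaving out 1 replicate gave 8 to 9 genes with a region and a median best rank of 20.9% (replicate 2 alone) to 40.1% (replicate 1 alone). Shares over all genes are not given for the single-replicate lists, so whether 8 to 9 of 10 is usual there cannot be told. Genes with AATGCAT beside a summit numbered 1 within 100 bp, 0 within 50 bp and 2 within 200 bp. Upstream, 8 genes had it within 500 bp and 6 had AAATGCAT, both chosen after seeing the data. The cause of the other shifts was not tested. No paired analysis was possible because there is only 1 group. Depth is unknown, so the absence of a region cannot be read as absence of MEC-3.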
